A study of Mus musculus with 36 samples.

Results

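The 6 cochlear libraries of circadian time CT12, 3 from adrenalectomized (ADX) and 3 from sham-operated mice, were compared as chosen by their labels from a series of 36. The animals of both groups were CBA/Sca mice aged 12 weeks. The sources used here give neither their sex nor the light schedule, and do not say whether hormone or salt was replaced after surgery. The full series holds 3 libraries of each status at each of 6 times spaced over a day, prepared from total RNA of whole cochlea. The table's own headers date the CT12 columns 1 h earlier, and hormone levels were not part of the data.

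Corticosterone is the main glucocorticoid of mice and is made in the adrenal cortex. In nocturnal rodents its level in blood is highest around the start of the active phase, which by convention is CT12. It binds the glucocorticoid receptor, which moves to the nucleus, binds DNA at paired AGAACA half-sites and raises or lowers transcription of its targets. Removal of the adrenals takes away corticosterone and also aldosterone and adrenaline, so the labels alone do not separate these hormones. In the cochlea the stria vascularis pumps potassium into the endolymph, and both glucocorticoid and mineralocorticoid receptors are found in inner ear tissue.

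The 29 genes followed most closely were listed as targets raised by glucocorticoids, with earlier results of these data known. RefSeq promoter windows of 250 bases upstream of the start (build GRCm38.p6) were at hand for 25 of them, in 38 windows. The full palindrome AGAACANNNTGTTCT was found in 3 of all 32851 windows (0.00913%) and in 1 of the 38 list windows, of Sgk1. A single half-site, AGAACA or TGTTCT, which the palindrome also contains, was found in 5284 of all 32851 windows and in 9 of the 38 list windows, from 6 genes. The E-box CACGTG, the letters bound by the clock factors BMAL1 and CLOCK, was found in 6.02% of all windows and in 6 of the 38 list windows, from 6 genes. The cyclic AMP response element TGACGTCA was found in 1.55% of all windows and in 2 of the 38 list windows, from 2 genes. All of these palindromic motifs read the same on both strands, and the half-site was searched on both. Bases 250 to 101 upstream of 4 genes are printed below. The Sgk1 stretch holds the palindrome, while Fkbp5, Dusp1 and Per1 combine an E-box with lower levels in ADX cochlea. Those last genes were picked with their levels known, from the 6 list genes that hold an E-box. Capitals mark the E-box, the full palindrome and the cyclic AMP response element, and each line runs 5′ to 3′ on the strand of the gene. Fkbp5 lies at chr17:28486250-28486399 on the minus strand, with CACGTG starting 169 bases upstream. Sgk1 lies at chr10:21993640-21993789 on the plus strand, 1 of 6 windows of that gene, with CACGTG at 246 and the palindrome at 189 bases upstream. A further half-site TGTTCT of Sgk1 overlaps the end of its E-box and is not set in capitals. Dusp1 lies at chr17:26508573-26508722 on the minus strand, with TGACGTCA at 143 and CACGTG at 126 bases upstream. Per1 lies at chr11:69098699-69098848 on the plus strand, 1 of 2 windows of that gene, with CACGTG at 166 bases upstream. A match is a description of these letters and was not tested as a binding site.
Fkbp5: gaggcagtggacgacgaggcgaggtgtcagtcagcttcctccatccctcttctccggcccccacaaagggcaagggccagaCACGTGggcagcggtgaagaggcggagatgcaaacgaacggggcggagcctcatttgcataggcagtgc
Sgk1: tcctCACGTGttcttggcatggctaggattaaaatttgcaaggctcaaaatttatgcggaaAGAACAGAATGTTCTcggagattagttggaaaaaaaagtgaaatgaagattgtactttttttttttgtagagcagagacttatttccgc
Dusp1: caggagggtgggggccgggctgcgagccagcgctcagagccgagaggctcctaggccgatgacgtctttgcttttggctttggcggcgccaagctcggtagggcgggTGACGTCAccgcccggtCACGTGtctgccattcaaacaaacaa
Per1: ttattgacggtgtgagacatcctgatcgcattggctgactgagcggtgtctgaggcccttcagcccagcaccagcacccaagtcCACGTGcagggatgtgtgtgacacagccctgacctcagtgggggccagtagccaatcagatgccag

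Each ADX library at CT12 held between 20351081 and 22304626 counts and each sham library between 21711163 and 22682581, within the series' range of 18999408 to 28995197. The labelled tissue was checked by its markers. All 19 hair cell, all 12 supporting cell and tectorial membrane, all 10 stria vascularis and all 14 spiral ganglion neuron markers passed the filter on low counts. Blood markers were abundant as well, and the summed level of 9 erythroid markers lay between 17427 and 26085 CPM (counts scaled to equal library size, but not for gene length) in ADX libraries and between 19118 and 25026 CPM in sham libraries. Muscle transcripts differed widely between the libraries. The summed level of 15 skeletal muscle markers was 343, 106 and 87.8 CPM in ADX replicates 1, 2 and 3, against 75.7, 69.3 and 67.2 CPM in sham replicates 1, 2 and 3. Replicate numbers name libraries only and did not pair them across groups.

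Over all genes, the comparison asked which cochlear transcripts differ without the adrenals at the time when corticosterone normally peaks. No gene passed the threshold of 0.05 after Benjamini-Hochberg adjustment in edgeR's quasi-likelihood test, 0 of 22556 tested or 0.0%. At an unadjusted p under 0.05 there were 1220 genes (5.41%), of which 703 (3.12%) were lower and 517 (2.29%) higher in ADX. The median log2 fold change, ADX minus sham throughout, over all tested genes was 0.003, with 11538 genes higher and 11018 lower in ADX. DESeq2 called 7 genes at an adjusted p under 0.05 (0.031%), and limma-voom called 0. Of these 7, Rasl12, Atp2c2, Igsf3, Fkbp5 and Mxd4 were lower in ADX, while the pituitary hormone genes Fshb and Cga had 1 and 3 counts in the 6 libraries together. Without ADX replicate 1 edgeR itself called 2 genes, Rasl12 and Atp2c2. Directions given below for single genes are therefore sizes with their errors, and none passed edgeR's adjusted threshold with all libraries in.

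**Figure D1:**
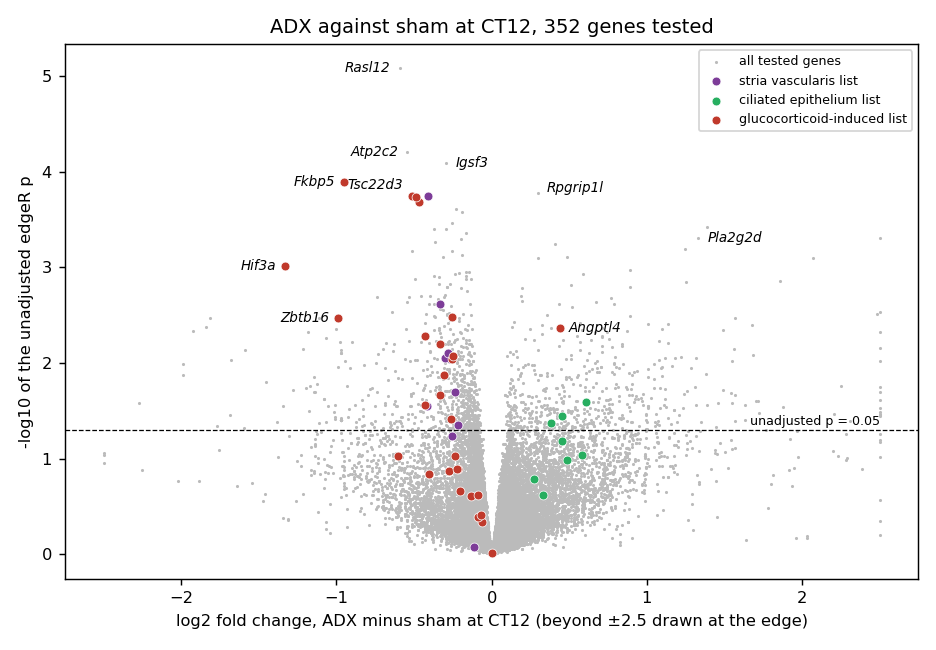
Each of the 22556 tested genes at CT12 is a point, with its log2 fold change (ADX minus sham) across and the −log10 of its unadjusted edgeR p upward; colours mark 3 gene lists and the dashed line an unadjusted p of 0.05. Most red points of the glucocorticoid-induced list lie left of 0, the purple stria points lie left and the green ciliated points right, and no point passed the adjusted threshold. The number in the picture's title counts only the genes named or listed here, not all genes tested.

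Glucocorticoid-induced genes were lower as a group in ADX cochlea. Because the list was written with earlier results of these data known, its counts are a description and not an independent check. Of the 29 genes, all of which passed the filter, 27 had a log2 fold change below 0 and 2 above. At an unadjusted p under 0.05, 15 were lower, against 3.12% of all tested genes, and 1 was higher, against 2.29%. In 18 of the 29 every ADX library lay below every sham library, against 5.34% of all tested genes. The median log2 fold change of the list was −0.26, beside 0.003 over all tested genes, and the smallest adjusted p in edgeR was 0.516. The count at an unadjusted p under 0.05 was 8 without ADX replicate 3, which was the lowest ADX library in 17 of the 29 genes, and between 11 and 16 with any of the other CT12 libraries left out. With skeletal muscle markers as a covariate it was 16 and the median −0.29. In whole cochlea, fewer cells of a type and less RNA per cell cannot be told apart.

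Fkbp5 (chr17:28399094-28517527) encodes a co-chaperone that lowers the receptor's affinity for hormone. Its level was 57.3, 72.6 and 44.7 CPM in ADX libraries, against 92.5, 107 and 138 CPM in sham libraries. The groups did not overlap, and Fkbp5 was 1.93-fold lower in ADX, with a log2 fold change of −0.95 ± 0.21 (SE, n = 3 each). The unadjusted p was 0.000129, and the adjusted p was 0.516 in edgeR and 0.0378 in DESeq2. Zbtb16 (chr9:48654297-48836222), a zinc finger transcription factor, had 59.8, 57.0 and 31.5 CPM in ADX libraries, against 110.2, 72.5 and 111 CPM in sham libraries. Again no ADX library reached the lowest sham library, and the log2 fold change was −0.99 ± 0.31 (edgeR adjusted p = 0.796).

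Tsc22d3 (chrX:140539528-140600659) encodes GILZ, a leucine zipper protein that carries part of the anti-inflammatory action of glucocorticoids. It had 147, 162 and 110.2 CPM in ADX libraries, against 189, 203 and 207 CPM in sham libraries. The sham values lay close together while ADX replicate 3 stood lowest, and the log2 fold change was −0.52 ± 0.12 (edgeR adjusted p = 0.516). Hif3a (chr7:17031507-17062427), a relative of the hypoxia-inducible factors, had the largest ratio of the list at 2.51-fold lower in ADX. Its level was 6.00, 6.83 and 3.18 CPM in ADX libraries, against 9.30, 13.0 and 17.9 CPM in sham libraries, and its log2 fold change was −1.33 ± 0.36 (edgeR adjusted p = 0.708). The sham libraries of Hif3a were spread widely, although the groups did not overlap.

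Among signalling inhibitors, Dusp1 (chr17:26505590-26562128), a phosphatase that inactivates MAP kinases, had 37.4, 31.6 and 29.7 CPM in ADX libraries, against 41.7, 44.0 and 51.1 CPM in sham libraries. Its log2 fold change was −0.47 ± 0.11 (edgeR adjusted p = 0.523). Errfi1, an inhibitor of the EGF receptor, was the steadiest of the group, with 71.9, 74.6 and 72.9 CPM in ADX libraries against 90.9, 80.9 and 90.3 CPM in sham libraries (log2 fold change −0.26 ± 0.08). Neither gene's groups overlapped. Sgk1, the kinase that keeps epithelial sodium channels at the membrane and whose promoter window holds the palindrome, had 135, 137 and 112 CPM in ADX libraries, against 171, 137 and 151 CPM in sham libraries. Its highest ADX and lowest sham library were nearly equal, and its log2 fold change was −0.26 ± 0.09. Arrdc2, an arrestin-domain protein gene, had 35.8, 33.7 and 23.5 CPM in ADX libraries and 43.8, 41.7 and 44.3 CPM in sham libraries. Its groups did not overlap, and its log2 fold change was −0.48 ± 0.11 (edgeR adjusted p = 0.516).

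Of the transcription factors, Klf9 had 85.1, 85.7 and 64.5 CPM in ADX libraries and 105, 89.3 and 102 CPM in sham libraries, a log2 fold change of −0.33 ± 0.11. Klf15 had 43.0, 45.1 and 33.3 CPM in ADX libraries and 55.6, 44.4 and 52.8 CPM in sham libraries, a log2 fold change of −0.33 ± 0.14. Klf9 did not overlap between groups, whereas Klf15 did. The metallothioneins Mt1 and Mt2, small metal-binding proteins whose genes lie side by side, were lower by 0.31 ± 0.12 and 0.43 ± 0.18 on the log2 scale in ADX, and neither overlapped. Fam107a, at a mean of 299.8 ± 33.6 CPM in ADX and 356 ± 41.8 CPM in sham libraries (SD, n = 3 each), and Plekhf1, with a log2 fold change of −0.26 ± 0.12, complete the 15 genes that were lower at an unadjusted p under 0.05, together with Per1 below.

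Angptl4, a secreted inhibitor of lipoprotein lipase that glucocorticoids raise in liver and fat, went the other way. It had 19.9, 13.3 and 19.9 CPM in ADX libraries, against 13.3, 11.8 and 14.2 CPM in sham libraries, which is 0.44 ± 0.14 higher on the log2 scale (adjusted p = 0.800 in edgeR). ADX replicate 2 lay among the sham libraries while the other two ADX libraries lay above them. The other 13 genes missed an unadjusted p of 0.05. Of these, 5 were lower in every ADX library than in any sham library, against 5.34% of all tested genes. They were Slc10a6 (log2 fold change −0.60 ± 0.35), Sult1a1 (−0.40 ± 0.27), Glul (−0.22 ± 0.14), the glutamine synthetase gene, Cebpb (−0.20 ± 0.16) and Nfkbia (−0.09 ± 0.07). Cdkn1a, Bcl6 and Rhob had log2 fold changes of −0.06 ± 0.08, −0.07 ± 0.08 and 0.00 ± 0.07, and the sign of Rhob turned under 7 of 13 alternatives.

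**Figure D2:**
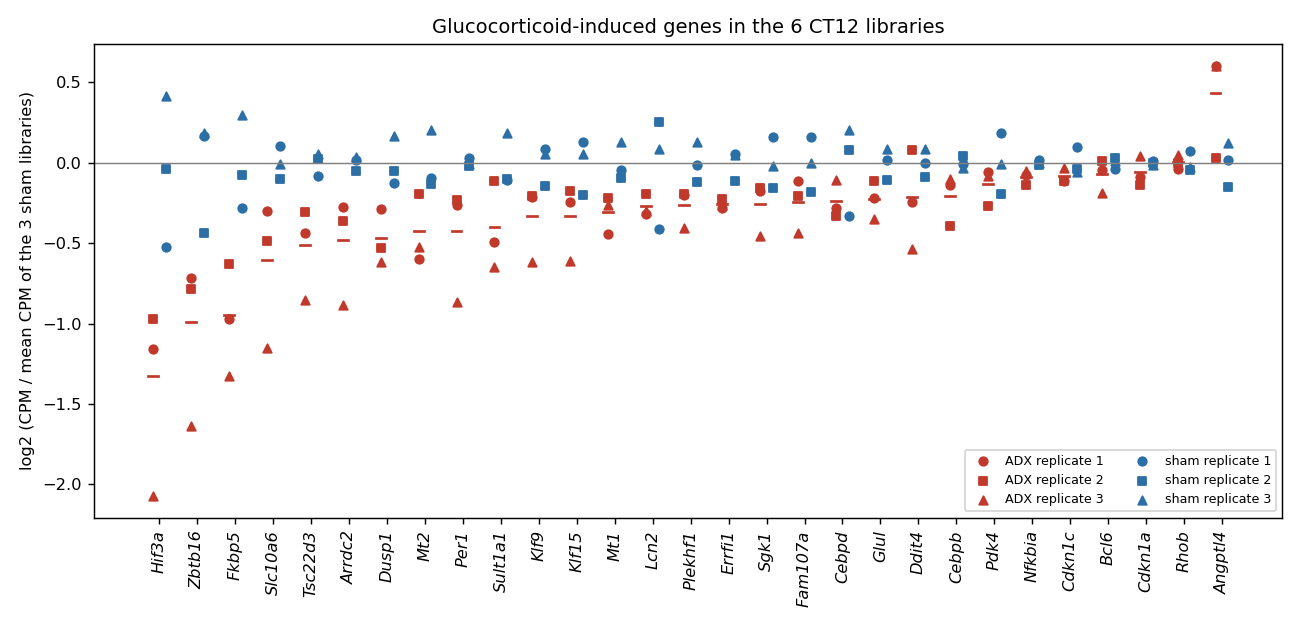
For each of the 29 glucocorticoid-induced genes, ordered by fold change, points give log2 of the CPM of single CT12 libraries over the mean CPM of the 3 sham libraries. Red is ADX, blue is sham, and shapes are replicates. Bars are log2 of the mean ADX CPM over the mean sham CPM. ADX points lie below sham points for most genes, ADX replicate 3 lies lowest for 17 of them, and Angptl4 at the right end lies above 0.

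For Fkbp5, Zbtb16 and Tsc22d3 the sham level at CT12 stood above that of every other time, while the ADX level at CT12 was close to that at CT16. Fkbp5 averaged 30.4, 41.4, 58.2, 61.1, 46.2 and 46.1 CPM in ADX libraries from CT04 to CT24, against 38.8, 39.6, 112, 69.2, 40.1 and 47.4 CPM in sham libraries. Sham libraries had their highest mean at CT12, ADX libraries had theirs at CT16, and at the other 5 times the log2 fold change lay between −0.35 and 0.20. Zbtb16 averaged 20.34, 24.9, 49.4, 44.5, 31.2 and 35.4 CPM in ADX libraries over the same times, against 22.7, 21.8, 98.1, 41.2, 28.5 and 29.004 CPM in sham libraries. Tsc22d3 averaged 79.9, 90.4, 139.7, 140.5, 104 and 93.6 CPM in ADX libraries, against 77.9, 97.2, 199.6, 141, 113 and 80.9 CPM in sham libraries. In all 3 genes ADX libraries still had higher means at CT12 and CT16 than at CT04 and CT08.

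Over the list, the highest of the 6 means stood at CT12 for 12 of 29 genes in ADX and for 21 of 29 in sham libraries, and at CT16 for 12 in ADX and 3 in sham libraries. The CT12 mean exceeded the mean of the other 5 times by a median log2 difference of 0.22 in ADX and 0.45 in sham libraries. The median difference of ADX from sham was −0.08, 0.02, −0.26, 0.03, −0.04 and 0.06 from CT04 to CT24. The numbers of members lower at an unadjusted p under 0.05 were 3, 2, 15, 0, 3 and 1 of 29 at these times, against 5.39, 1.65, 3.12, 3.92, 3.09 and 2.90% of all tested genes.

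The difference of CT12 from the mean of the other 5 times was itself tested as an interaction. No gene passed the adjusted threshold in edgeR (0.0%), where the smallest adjusted p was 0.148 for Rasl12, and DESeq2 called 3 genes, Rasl12 and the barely counted Fshb and Cga. At an unadjusted p under 0.05, 1159 genes stood out (5.14%). Of the 29 glucocorticoid-induced genes, 13 were further below 0 at CT12, against 3.09% of all tested genes, and 1, Angptl4, was further above, against 2.05%. On the log2 scale Fkbp5 had an interaction of −0.89 ± 0.24 and Zbtb16 one of −1.10 ± 0.34. Tsc22d3 followed at −0.52 ± 0.13 and Arrdc2 at −0.51 ± 0.12, and the edgeR adjusted p of these genes was 0.887 or 0.898. Dusp1 had a smaller interaction of −0.28 ± 0.12, since its log2 fold change was also −0.44 ± 0.11 at CT20 and −0.36 ± 0.11 at CT24.

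**Figure D3:**
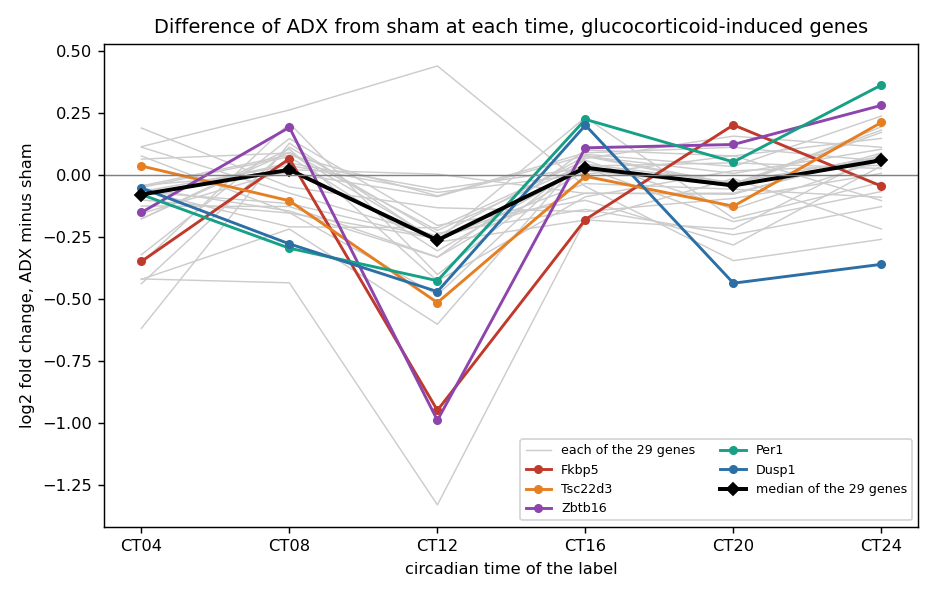
Lines join the log2 fold change (ADX minus sham) of each glucocorticoid-induced gene at the 6 labelled times, with 5 genes in colour and the median of the 29 in black. The median is lowest at CT12, at −0.26, and lies between −0.08 and 0.06 at the other times.

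The receptors themselves differed little in transcript level. Nr3c1, the glucocorticoid receptor gene, had 121, 127 and 124 CPM in ADX libraries, against 119.6, 118 and 121 CPM in sham libraries, a log2 fold change of 0.06 ± 0.07. Nr3c2, the mineralocorticoid receptor gene, averaged 52.6 ± 2.01 CPM in ADX and 53.3 ± 2.57 CPM in sham libraries (SD, n = 3 each). Hsd11b1, whose enzyme regenerates active corticosterone, averaged 23.7 ± 1.40 CPM in ADX and 27.2 ± 0.403 CPM in sham libraries (log2 fold change −0.19 ± 0.11), with no overlap. The inactivating enzyme's gene Hsd11b2 was scarce, at 0.696 ± 0.0892 CPM in ADX and 0.691 ± 0.170 CPM in sham libraries. Among all 15 receptor, enzyme and coregulator genes only the coactivator Ncoa3 had an unadjusted p under 0.05, at −0.11 ± 0.04 in ADX, and the median of the 15 was −0.02. In 20 inflammatory genes known to be repressed by glucocorticoids, 15 were higher and 5 lower in ADX, with a median of 0.12. Relb, an NF-kB subunit gene, was the only one at an unadjusted p under 0.05 (0.24 ± 0.11), against 2.29% of all tested genes higher. These values were not particular to CT12. At CT08, 14 of the 20 were higher with a median of 0.115, and at the remaining times the median lay between −0.048 and −0.028.

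Clock genes carry both their own rhythm and, for the period genes, a direct response to glucocorticoids. Of 19 core clock genes 16 were lower in ADX at CT12, 3 of them at an unadjusted p under 0.05, against 3.12% of all tested genes, and the median was −0.09. From CT04 to CT24 the median was 0.192, −0.105, −0.091, 0.061, 0.052 and 0.196, so the direction changed with time. At CT04, 9 of the 19 were higher at an unadjusted p under 0.05, against 881 of all 22556 tested genes. At CT20, 7 were, against 993 of 22556. Per1 (chr11:69095217-69109960), a repressor of the clock whose E-box is printed above, had 129.6, 132 and 85.3 CPM in ADX libraries, against 159, 153 and 155 CPM in sham libraries. Its groups did not overlap, and its log2 fold change was −0.43 ± 0.14 (edgeR adjusted p = 0.811). Per2, its partner, had 97.7, 92.0 and 69.1 CPM in ADX libraries, against 107, 100.7 and 114 CPM in sham libraries, with −0.32 ± 0.13 on the log2 scale. ADX replicate 3 was the lowest library for both period genes and for Ciart, the third clock gene, which encodes the repressor CHRONO (−0.40 ± 0.16). The other 16 clock genes, activators and nuclear receptors included, missed an unadjusted p of 0.05.

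Outside these lists the smallest p belonged to Rasl12 (chr9:65398506-65414853), a gene for a Ras-like small GTPase. It had 29.1, 23.2 and 20.8 CPM in ADX libraries, against 42.1, 33.6 and 34.7 CPM in sham libraries. The groups did not overlap, and Rasl12 was 1.51-fold lower in ADX with a log2 fold change of −0.59 ± 0.11. Its adjusted p was 0.188 in edgeR, 0.00158 in DESeq2 and 0.0134 in edgeR without ADX replicate 1. At the other 5 times its log2 fold change lay between −0.11 and 0.20, and its interaction of −0.66 ± 0.12 had the smallest p of all genes. Atp2c2, which encodes a Golgi calcium and manganese pump, had 24.24, 18.7 and 16.7 CPM in ADX libraries, against 34.96, 25.2 and 26.8 CPM in sham libraries (log2 fold change −0.54 ± 0.12, DESeq2 adjusted p = 0.0308). Both genes were highest in replicate 1 of each group.

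Igsf3, an immunoglobulin-domain membrane protein gene, had 54.1, 52.0 and 53.0 CPM in ADX libraries and 65.3, 68.3 and 61.2 CPM in sham libraries. Its log2 fold change was −0.29 ± 0.06, with an adjusted p of 0.516 in edgeR and 0.0329 in DESeq2. Mxd4, a MAX-binding repressor gene, had 231, 216 and 216 CPM in ADX libraries, against 257, 245 and 255 CPM in sham libraries, a ratio of only 1.14 (DESeq2 adjusted p = 0.0378). Neither gene overlapped between groups. Paqr7, a membrane progestin receptor gene, was lower by 0.23 ± 0.05 on the log2 scale. Pfkfb3, a regulator of glycolysis, was lower by 0.25 ± 0.06, and Rgcc, a regulator of the cell cycle, by 0.37 ± 0.09. By the interaction, Paqr7, Tspan4, Mxd4, Arrdc2, Usp2, Lims2 and Igsf3 followed Rasl12, with values between −0.21 and −0.60 on the log2 scale.

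Among higher genes, Rpgrip1l, which encodes a transition zone protein of cilia, had 26.1, 27.5 and 27.9 CPM in ADX libraries, against 21.9, 21.8 and 22.6 CPM in sham libraries (log2 fold change 0.30 ± 0.07, edgeR adjusted p = 0.516). Pla2g2d, a secreted phospholipase gene of lymphoid tissue, had 14.2, 17.1 and 26.4 CPM in ADX libraries, against 6.53, 10.1 and 6.25 CPM in sham libraries, a log2 fold change of 1.33 ± 0.34. Its interaction was 0.14 ± 0.37, so its CT12 value was not set apart from the other times. The complement gene Cfb was higher by 0.41 ± 0.11, with an interaction of 0.14 ± 0.12. The mitochondrial gene mt-Nd6, transcribed from the strand opposite most mitochondrial genes, had 11.6, 12.5 and 12.5 CPM in ADX libraries, against 5.26, 8.35 and 6.02 CPM in sham libraries, and strand settings of the counting are unknown. The remaining 8 of the 12 higher protein-coding genes with the smallest p were Zfp418, Tex9, Tmprss13, Nkap, P2rx4, Ccdc87, Zfp608 and 4930404N11Rik, with log2 fold changes from 0.19 to 0.89.

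Genes of the stria vascularis were lower in ADX, with counts that depended on 1 sham library. All 10 markers had log2 fold changes below 0, 8 at an unadjusted p under 0.05, against 3.12% of all tested genes, and the median was −0.27. From CT04 to CT24 the median was −0.045, −0.117, −0.272, 0.06, −0.191 and 0.023. All 10 were lower at CT08 and at CT20 too. At CT20, 4 of them had an unadjusted p under 0.05, against 3.09% of all tested genes. Esrrb (chr12:86361117-86521628), a nuclear receptor gene needed for marginal cell identity, had 100.2, 89.7 and 80.0 CPM in ADX libraries, against 136, 108 and 115 CPM in sham libraries. Its groups did not overlap, and its log2 fold change was −0.41 ± 0.10 (edgeR adjusted p = 0.516). The potassium channel subunit Kcne1 had 131, 109 and 108 CPM in ADX libraries, against 176, 129 and 133 CPM in sham libraries. Its partner Kcnq1 (−0.30 ± 0.11) and the intermediate cell channel gene Kcnj10 (−0.27 ± 0.09) overlapped between groups in the same way, with sham replicate 1 on top. The sodium pump subunit Atp1b2 had 802, 749 and 766 CPM in ADX libraries, against 1101, 826 and 884 CPM in sham libraries, with no overlap.

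The summed level of the 10 stria markers was 2498, 2258 and 2192 CPM in ADX libraries, against 3269, 2478 and 2619 CPM in sham libraries. Without sham replicate 1, 1 of 10 stria markers kept an unadjusted p under 0.05 and 9 stayed below 0. Without ADX replicate 2 or without ADX replicate 3 the count was 5. Of 15 sodium and potassium transport genes, 5 of which are also stria markers, 14 were lower, 7 at an unadjusted p under 0.05, against 3.12% of all tested genes. That count was 0 without sham replicate 1 and 4 without ADX replicate 3. The median of the 15 was −0.23 at CT12, and 0.021, −0.069, −0.235, 0.045, −0.108 and 0.015 from CT04 to CT24. Of the pigment genes of intermediate cells and other melanocytes, Mlana (−0.44 ± 0.16), Tyr (−0.36 ± 0.15) and Dct (−0.35 ± 0.14) were lower at an unadjusted p under 0.05 and the other two of the list were higher without reaching it. None of the 5 melanocyte genes stayed under 0.05 without sham replicate 1 or without ADX replicate 3. At CT20 all 5 were lower in ADX, 3 of them at an unadjusted p under 0.05, against 3.09% of all tested genes. The part that the stria share of each dissection had in these values was not tested.

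**Figure D4:**
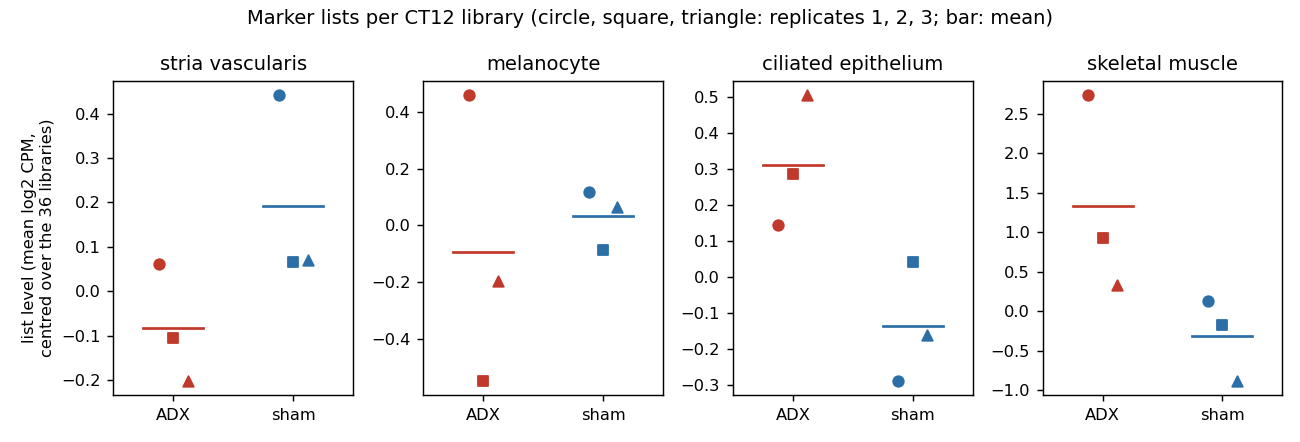
Each panel shows one marker list as the mean of its members' log2 CPM, centred over the 36 libraries, in the single CT12 libraries (circle, square and triangle for replicates 1, 2 and 3, bar for the mean; ADX in red left, sham in blue right; each panel has its own axis). Sham replicate 1 lies highest for the stria, the 3 ADX libraries lie above the 3 sham libraries for ciliated epithelium, and ADX replicate 1 lies highest for skeletal muscle at 2.74.

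Genes of the sensory epithelium showed few differences. Of 19 hair cell genes 10 were lower and 9 higher in ADX, with a median of −0.01. The outer hair cell genes Ocm, for the calcium buffer oncomodulin, and Slc26a5, for the motor protein prestin, were lower. Ocm had 23.5, 23.8 and 23.1 CPM in ADX libraries, against 30.7, 29.04 and 28.9 CPM in sham libraries (log2 fold change −0.33 ± 0.14). Slc26a5 had 3.59, 4.09 and 3.05 CPM in ADX libraries, against 5.08, 5.21 and 4.40 CPM in sham libraries (−0.45 ± 0.20). Neither overlapped between groups, and both had an edgeR adjusted p of 0.917. The hair cell fate gene Atoh1 was the only one higher at an unadjusted p under 0.05, with 0.216 ± 0.0621 CPM in ADX and 0.0760 ± 0.0508 CPM in sham libraries, a level of few counts in every library. Among 12 supporting cell and tectorial genes, Epyc was lower (−0.31 ± 0.13) and the progenitor factor Sox2 higher (0.25 ± 0.12). None of 14 spiral ganglion neuron genes and none of 8 Schwann cell and myelin genes had an unadjusted p under 0.05.

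Markers of motile cilia, found in the middle ear lining next to the cochlea, were higher in ADX. All 8 had positive log2 fold changes with a median of 0.45, and 7 did not overlap between groups, against 5.09% of all tested genes. Foxj1, the master regulator of motile cilia, had 25.7, 28.7 and 36.1 CPM in ADX libraries, against 19.5, 23.6 and 22.9 CPM in sham libraries (0.45 ± 0.21). Dynlrb2 (0.61 ± 0.26) and Cfap126 (0.38 ± 0.18) also had an unadjusted p under 0.05. That count of 3 of 8, against 2.29% of all tested genes, was 0 without ADX replicate 3, without sham replicate 1 or without sham replicate 3. At CT20 all 8 were higher at an unadjusted p under 0.05, against 993 of all 22556 tested genes. The median of this list was 0.26, −0.08, 0.45, 0.11, 0.92 and −0.07 from CT04 to CT24. All 15 skeletal muscle markers were higher with a median of 1.92, 8 of them at an unadjusted p under 0.05, against 2.29% of all tested genes, and that count was 0 without ADX replicate 1. Myh4, a fast muscle myosin gene, had 47.3, 6.18 and 2.06 CPM in ADX libraries, against 1.03, 0.404 and 0.463 CPM in sham libraries.

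**Figure D5:**
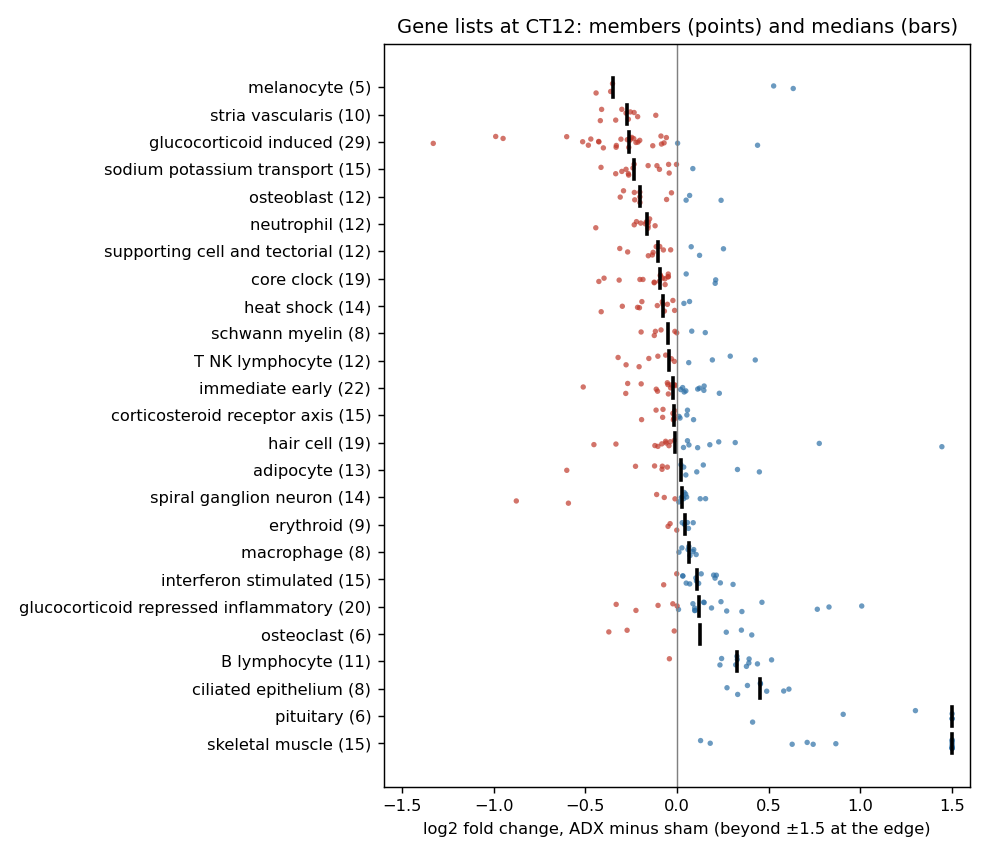
Points give the log2 fold change (ADX minus sham) at CT12 of each member of the gene lists with at least 5 tested members, with the number tested in brackets and a black bar at the median; red is below 0 and blue above. Lists run from melanocyte and stria markers and glucocorticoid-induced genes at the low end to ciliated epithelium, pituitary and skeletal muscle at the high end, with the pituitary and muscle medians of 1.67 and 1.92 drawn at the edge.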

How the data were processed

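Per the labels' protocols, RNA went into strand-specific TruSeq mRNA libraries read as single reads of 100 bases. STAR 2.4.0i and build mm10 are named in the submitters' processing notes, while the counter, annotation and strand setting are not stated there. The deposited values are whole-number counts per Ensembl gene that the authors had not normalized, for 39017 genes and 36 libraries. Column names carried times 1 h earlier than the labels in 30 columns, CT11 for CT12, and each column was given to the library of equal status and replicate number whose label lay no more than 1 h away. Symbols and coordinates came from GENCODE M21 (GRCm38), which matched 37607 IDs (96.4%), and promoter sequences from RefSeq.

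edgeR 4.0.16 in R 4.3.3 (filterByExpr, TMM, glmQLFit and glmQLFTest) fitted 12 group means to all 36 libraries, leaving 24 residual degrees of freedom. The 16461 genes left out held 0.0779% of counts. CPM are the counts scaled by TMM library sizes, computed here, and are not corrected for gene length. SEs were derived from the F statistic. Replicates of a group differed by more than sampling noise, and p-values measure the spread between samples not stated to be separate animals. For each CT12 library, the deviations of log2 CPM from its own group's mean were taken over the tested genes. These deviations correlated at 0.076, −0.024 and 0.022 between same-numbered ADX and sham libraries, so numbers were not used as pairs.

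Members, lists and tests were chosen with earlier results of these data known. Named genes were the glucocorticoid-induced and receptor lists, the 12 higher and 12 lower protein-coding genes of smallest p with a mean of at least 1 CPM, DESeq2 calls, up to 4 members per other list, and the 8 of smallest interaction p. Alternatives were DESeq2 1.42.0, its size factors, no low-count filter, limma-voom (limma 3.58.1), a replicate block, the 6 libraries alone, a muscle covariate and each library left out. The edgeR test was tried on simulated counts. Figures used matplotlib 3.10.9.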

Additional observations from a re-analysis of the deposited data

Results flagged for a closer look

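Some of the genes named here had ADX and sham libraries that did not overlap at CT12. At another time they did not overlap in the opposite direction. In each case the difference between these 2 times was not tested. At CT12 alone, 5.34% of all tested genes were lower in ADX without overlap and 5.09% higher. The share of all tested genes with such a reversal was not computed, so these cases stand without a base rate. Values are log2 fold changes of ADX minus sham. 3 glucocorticoid-induced genes that were lower at CT12 were higher at CT24, namely Tsc22d3 (0.21 at CT24, −0.52 at CT12), Per1 (0.36 at CT24, −0.43 at CT12) and Klf9 (0.19 at CT24, −0.33 at CT12). Plekhf1 was 0.23 at CT16 and −0.26 at CT12. Per2 was 0.31 at CT20 and 0.46 at CT24, against −0.32 at CT12. The coactivator gene Ncoa3 was 0.06 at CT20 and −0.11 at CT12, and the receptor gene Nr3c1 was −0.10 at CT16 and 0.06 at CT12.

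Among the other genes, Paqr7 was 0.16 at CT04 and 0.13 at CT16, against −0.23 at CT12. Tspan4 was 0.24 at CT04 and 0.25 at CT16, against −0.27 at CT12, and Nkap was −0.18 at CT16 and 0.20 at CT12. Atoh1, named after its values were seen, was −1.04 at CT08 and 1.44 at CT12 from very few counts. The muscle genes Myh4 and Atp2a1 were −2.69 and −1.83 at CT24, against 4.87 and 2.86 at CT12.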

How the results depend on the processing

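Genes called at CT12 numbered 0 in edgeR and 7 in DESeq2, and between 0 and 2 with any 1 of the 36 libraries left out. Without ADX replicate 1 the 2 were Rasl12 (−0.74, adjusted p = 0.0134) and Atp2c2 (−0.71, adjusted p = 0.0206). The interaction gave 0 calls in edgeR, 3 in DESeq2 and between 0 and 1 with a library left out. The cause was not tested. The replicate block gave 0 calls, and 16 of 29 glucocorticoid-induced genes lower at an unadjusted p under 0.05 with a median of −0.262. Over all alternatives that median lay between −0.33 and −0.239. Rhob turned to −0.003 with DESeq2 and with its size factors, −0.01 without the low-count filter and −0.019 with the muscle covariate, and ran from −0.022 to 0.039 with a CT12 library left out. Nr3c2 was 0.001 with the muscle covariate and ran from −0.057 to 0.012, and Hsd11b2 from −0.162 to 0.182. With 3 libraries a group, left-out fits pool the spread over the series. Of 92 genes recomputed singly, the other 89 kept their direction under every alternative run. Fshb and Cga were not among them.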

Other observations

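Of 14 heat shock genes 12 were lower in ADX, with Hspe1 (−0.21 ± 0.08) and Hspa4l (−0.19 ± 0.09) at an unadjusted p under 0.05, against 3.12% of all tested genes, and a list median of −0.08. Among 22 immediate early genes Ier2 alone reached that level (−0.20 ± 0.09), and Fos had a log2 fold change of −0.27 ± 0.19. Of 15 interferon-stimulated genes 13 were higher in ADX, none at an unadjusted p under 0.05, with a median of 0.11. Neither list was particular to CT12. At CT16 the heat shock median was −0.152, with 7 of 14 lower at an unadjusted p under 0.05, against 3.92% of all tested genes. At CT16 13 of the 15 interferon-stimulated genes were also higher, 7 at an unadjusted p under 0.05, against 909 of 22556 tested genes. At CT04 all 15 were lower.

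Marker transcripts of blood and bone cells differed in level between single libraries, and some of their differences recurred at other times. Of 11 B lymphocyte genes 10 were higher, with summed levels of 1406, 1345 and 2061 CPM in ADX libraries against 1181, 1495 and 1129 CPM in sham libraries, so that ADX replicate 3 stood highest and the groups overlapped. From CT04 to CT24, 11, 11, 10, 10, 9 and 10 of the 11 were higher. All 12 neutrophil genes were lower, with summed levels of 7642, 8363 and 7757 CPM in ADX libraries against 6873, 11042 and 9033 CPM in sham libraries, and Chil3 alone had an unadjusted p under 0.05 (−0.44 ± 0.20). All 12 were also lower at CT04, CT16, CT20 and CT24, while 9 were higher at CT08. At CT04, 9 were lower at an unadjusted p under 0.05, against 5.39% of all tested genes. Plin4, a lipid droplet coat gene of fat cells, had 51.7, 53.3 and 38.2 CPM in ADX libraries, against 79.8, 59.5 and 78.0 CPM in sham libraries, a log2 fold change of −0.60 ± 0.23 in edgeR with no overlap. The other 12 adipocyte markers had an unadjusted p above 0.05. The osteocyte gene Mepe was lower by 0.31 ± 0.12 on the log2 scale, the only 1 of 12 osteoblast and osteocyte genes at an unadjusted p under 0.05 at CT12. At CT20, 11 of the 12 were lower at that level, against 3.09% of all tested genes. At CT24, 9 were, against 2.90%. Pituitary transcripts were traces in these libraries, with 6 markers summing to 4.18, 1.596 and 20.31 CPM in ADX libraries against 1.598, 2.87 and 6.34 CPM in sham libraries.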
